A study of Mus musculus with 12 samples.

Results

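Kcnj13, Tmem140, Scrg1, Tmem179, Selenbp1 and Lims2 are 6 genes with large responses to drug or time, and each was followed across all arrays of the series. They were selected on the measured size of their drug or time effects, so all of their values and differences below are descriptions with no test. A probe set, the group of short probes that measures a transcript on the array, counted as theirs where the array annotation paired it with that gene alone. This gave 8 probe sets of 45037 that were not controls, and 6 genes of 18193. Of the 6 genes, 4 were measured by 1 probe set and 2 (Tmem140 and Selenbp1) by 2 probe sets. None of these probe sets was shared with another gene in the annotation, and no filter on low signal was applied, so all 8 are accounted for.

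The cells were B16-OVA, a mouse melanoma line that carries the ovalbumin antigen, grown as a single cell type in culture without a host. One set received the MEK inhibitor GDC-0623 (MEKi) at 100 nM and the other its solvent DMSO, with harvest after 24 h or 72 h. Each of the 4 groups (MEKi at 24 h, DMSO at 24 h, MEKi at 72 h, DMSO at 72 h) had 3 arrays. Values are log2 signals, on which a difference of 1 is a doubling, and they ran between 2.21 and 14.47 over all probe sets, with a median probe set mean of 5.363. The series text names the replicates biological without stating whether each came from a culture of its own. Errors and p-values therefore cover the spread of these arrays, part of which may be technical. All 7 melanocyte markers, such as Mlana, Tyr and Mitf, lay above the median, with means between 12.2 and 14.3. Of the markers of other cells, 2 of 6 immune, 2 of 5 fibroblast, 1 of 4 endothelial and 1 of 4 epithelial genes lay above it, with means no higher than 6.54. With MEKi at 24 h 1 immune, 1 fibroblast and 1 endothelial marker rose (Lyz2, Col1a2 and Vwf), and at 72 h 1 immune marker (Cd68). Over time in DMSO 2 immune, 1 fibroblast and 1 endothelial marker rose (Ptprc, Lyz2, Pdgfrb and Kdr), of which Pdgfrb had the largest log2 difference, 0.80 ± 0.12 (adjusted p = 0.0018). Of the 7 melanocyte markers, Tyr and Mitf rose with MEKi at 24 h, by 0.35 ± 0.06 and 0.34 ± 0.06 (adjusted p = 0.0142 and 0.0174). None passed the test at 72 h. Over time in DMSO Tyr rose by 0.30 ± 0.07 (adjusted p = 0.014) and Sox10 fell by 0.34 ± 0.09 (adjusted p = 0.0213). Over all genes 5.01% were called higher and 5.86% lower with MEKi at 24 h. The shares were 4.03% and 5.14% at 72 h, and 14.2% and 16.9% over time in DMSO. The part of these markers in the results below was not tested. Of 5 direct outputs of the ERK pathway, the kinase cascade that MEK activates, all 5 were lower with MEKi at 24 h, with Etv5 at -4.06 ± 0.42 (log2 difference ± SE; limma adjusted p = 0.00256). At 72 h 4 of the 5 were lower. Over time without drug 4 of them were lower and 1 was higher, and Etv5 fell by 3.60 ± 0.12 (adjusted p = 2.77e-06). The arrays also differed between harvest times in technical measures. The Dap spike-in, a control of the labelling, had a 3′ over 5′ log2 difference that lay between 1.34 and 1.47 at 72 h and between 1.96 and 2.16 at 24 h, and the array medians between 5.36 and 5.42 at 72 h and between 5.31 and 5.34 at 24 h. The part of these measures in any time difference below was not tested.

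The 6 genes encode proteins of different kinds. Kcnj13 encodes the inward rectifier potassium channel Kir7.1, known from the retinal pigment epithelium, and in zebrafish it takes part in forming the pigment stripes. Tmem140 and Tmem179 encode membrane proteins. Scrg1 encodes a small secreted protein known from cartilage-forming cells and from brain. Selenbp1 encodes a selenium-binding enzyme that oxidizes methanethiol, a breakdown product of sulfur amino acids, to hydrogen sulfide, hydrogen peroxide and formaldehyde. Lims2 encodes PINCH2, a LIM-domain adaptor that binds integrin-linked kinase (ILK) at focal adhesions, the points where integrins tie the cytoskeleton to the matrix.

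No promoter of Scrg1 was in the promoter reference used here, and that of Lims2 was left out. The promoters of the other 4 genes are printed. They are the 250 bases before the transcript start in RefSeq (GRCm38.p6), in the direction of the gene, and capitals mark the M-box core CATGTG (or CACATG, the same letters on the other strand), which lies within the longer site of the melanocyte factor MITF.
Kcnj13, chr1:87394730-87394979, minus strand: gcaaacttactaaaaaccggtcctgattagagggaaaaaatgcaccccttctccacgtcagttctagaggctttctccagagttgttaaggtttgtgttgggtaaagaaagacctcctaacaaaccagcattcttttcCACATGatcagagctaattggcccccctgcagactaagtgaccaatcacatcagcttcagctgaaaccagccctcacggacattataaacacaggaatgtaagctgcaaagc
Tmem140, chr6:34862896-34863145, plus strand: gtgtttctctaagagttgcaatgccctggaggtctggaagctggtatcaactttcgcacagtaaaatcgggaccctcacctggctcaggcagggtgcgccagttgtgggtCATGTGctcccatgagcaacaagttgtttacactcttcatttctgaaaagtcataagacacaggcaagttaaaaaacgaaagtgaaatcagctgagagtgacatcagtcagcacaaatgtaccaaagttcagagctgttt
Selenbp1, chr3:94932833-94933082, plus strand: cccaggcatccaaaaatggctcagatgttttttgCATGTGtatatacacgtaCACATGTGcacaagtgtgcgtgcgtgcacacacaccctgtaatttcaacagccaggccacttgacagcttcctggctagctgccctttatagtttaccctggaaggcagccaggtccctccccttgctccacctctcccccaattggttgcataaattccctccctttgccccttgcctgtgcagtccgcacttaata
Tmem179, chr12:112511161-112511410, minus strand: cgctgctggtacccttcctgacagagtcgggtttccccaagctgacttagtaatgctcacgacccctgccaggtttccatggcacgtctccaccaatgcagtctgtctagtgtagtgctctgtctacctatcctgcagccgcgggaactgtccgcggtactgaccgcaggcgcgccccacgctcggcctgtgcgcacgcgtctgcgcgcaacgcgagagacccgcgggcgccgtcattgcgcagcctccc
Kcnj13 held 1 match, 112 to 107 bases before the start and on the other strand. Tmem140 held 1 match, 140 to 135 bases before the start. Selenbp1 held 3 matches, at 216 to 211, 198 to 193 and 196 to 191 bases before the start, the last 2 of which overlap. Tmem179 held none. Of 32851 promoter windows of the same length, 12.3% held the M-box core on either strand. The AP-1 site TGANTCA, the E-box CACGTG and the ETS core CCGGAA were searched on both strands as well, overlap with none of the M-box matches, and were in none of these 4 windows. They were in 6.75%, 6.02% and 12% of all windows. A match describes letters only.

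Kcnj13 was the gene with the largest increase under MEKi at 72 h. Its single probe set, 1456418_at, gave 7.29, 6.98 and 6.02 with MEKi at 24 h, against 5.23, 5.34 and 4.86 with DMSO. At 72 h it gave 10.56, 9.12 and 9.08 with MEKi, against 6.91, 6.48 and 6.16 with DMSO. At both times the lowest MEKi array lay above the highest DMSO array, by 0.68 at 24 h and by 2.17 at 72 h. The log2 difference was 1.62 ± 0.29 at 24 h (3.07-fold; SE, n = 3 arrays per group here and below), rank 2 from the top of 18193 genes. At 72 h it was 3.07 ± 0.35 (8.40-fold), the highest of all genes. Kcnj13 was also higher at 72 h than at 24 h without drug, by 1.37 ± 0.19 (2.59-fold), and with MEKi this time difference was 2.82 ± 0.41 (7.08-fold). The MEKi effect at 72 h minus that at 24 h was 1.45 ± 0.52. It passed the threshold of the limma fit, an adjusted p of 0.05, with the replicate block (a term for the replicate number shared by MEKi and DMSO arrays) but not without it. Its signal in DMSO at 24 h lay below the median probe set mean of 5.363 in each array, and its mean after 72 h of MEKi was 9.59. Without replicate 1 or 2 of MEKi or replicate 3 of DMSO its 24 h value was 1.36, 1.51 and 1.48 and did not pass the threshold of the fit.

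None of the 14 other inward rectifier channel genes passed the test under MEKi at either time, with a median log2 difference of 0.02 at 24 h and 0.11 at 72 h, beside 0.007 and 0.01 over all genes. Most of the 14 had group means below the median probe set mean of 5.363. In DMSO at 24 h Kcnj2 and Kcnj10 had 2.8 and 3.68, while Kcnj11 had 8.95. Over time in DMSO, Kcnj11, a subunit of the ATP-sensitive channel, rose by 0.27 ± 0.07 (adjusted p = 0.0189). Kcnj14 fell by 0.55 ± 0.14 (adjusted p = 0.0186), with means of 3.83 at 72 h and 4.37 at 24 h, below the median probe set mean. Both calls were lost without replicate 2 or 3 of DMSO at 24 h or replicate 1 of DMSO at 72 h, and that of Kcnj11 also without replicate 1 at 24 h and with arrays centred on their median. Of 11 retinal pigment epithelium genes, 2 rose and none fell with MEKi at 24 h: Ptgds, the prostaglandin D synthase, by 0.72 ± 0.11 (adjusted p = 0.00782) and Trpm1, a cation channel also made by melanocytes, by 0.54 ± 0.08 (adjusted p = 0.00778). At 72 h the same 2 rose, by 0.58 ± 0.09 and 0.63 ± 0.10 (adjusted p = 0.00619 and 0.00668), and the retinol dehydrogenase Rdh5 fell by 0.73 ± 0.15 (adjusted p = 0.0184), a call lost without replicate 1 or 3 of DMSO or replicate 2 of MEKi. Over all genes, 5.01% were called higher and 5.86% lower under MEKi at 24 h, while 4.03% were called higher and 5.14% lower at 72 h. Over time in DMSO 2 of the 11 rose and 2 fell, against 14.2% higher and 16.9% lower over all genes. Rdh5 rose by 0.90 ± 0.14 (adjusted p = 0.00176) and Slc16a8 by 0.31 ± 0.07 (adjusted p = 0.0158), the second lost without replicate 2 at 24 h. Rlbp1 fell by 1.09 ± 0.20 (adjusted p = 0.00475) and Trpm1 by 0.42 ± 0.09 (adjusted p = 0.011). Ptgds had a difference of -0.02 ± 0.09, which did not pass. Of these 11 genes, 6 had a mean over all arrays above the median probe set mean. Kcnj13 lies within the span of Gigyf2, a translation regulator, whose log2 differences were 0.12 ± 0.10 at 24 h and 0.10 ± 0.08 at 72 h under MEKi and 0.05 ± 0.08 over time in DMSO, none of which passed the test.

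Tmem140 was higher with MEKi at both times. Its brighter probe set, 1424354_at, gave 6.71, 6.76 and 6.0 with MEKi at 24 h, against 4.75, 4.97 and 4.90 with DMSO. At 72 h it gave 7.08, 7.70 and 7.42 with MEKi, against 5.23, 5.59 and 6.12 with DMSO. The groups did not overlap at either time, with gaps of 1.03 and 0.96 between the nearest arrays. The log2 difference was 1.62 ± 0.18 at 24 h (3.07-fold, the third highest of all genes) and 1.75 ± 0.21 at 72 h (3.37-fold, the fifth highest). The difference between these effects was 0.14 ± 0.32, less than its error. Between the harvests the signal at 72 h exceeded that at 24 h by 0.91 ± 0.21 with MEKi and by 0.77 ± 0.19 in DMSO. The DMSO value was 0.71 without replicate 1 at 24 h and then did not pass the threshold.

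The second probe set of Tmem140, 1443556_at, did not show this. It gave 4.21, 4.58 and 4.21 with MEKi at 24 h, against 4.24, 4.09 and 4.09 with DMSO, and 4.27, 4.36 and 4.39 with MEKi at 72 h, against 4.24, 4.25 and 4.22 with DMSO. The 24 h groups overlapped, and those at 72 h were apart by 0.02. Its log2 differences were 0.19 ± 0.11 at 24 h and 0.10 ± 0.08 at 72 h, and the brighter probe set exceeded them by 1.42 and 1.65. All of its values lay below the median probe set mean, and within an array it was dimmer than the other probe set by 0.51 to 3.34. The mean of both probe sets gave a difference of 0.91 at 24 h and 0.93 at 72 h, so the size given for Tmem140 depends on which probe set is read. Which transcripts the dim probe set measures was not tested. Wdr91, an endosomal protein whose gene lies next to Tmem140, rose by 0.51 ± 0.06 with MEKi at 24 h (adjusted p = 0.00473) and had a difference of 0.02 ± 0.08 at 72 h. Agbl3, the neighbour on the other side, did not pass the test in these comparisons.

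Scrg1 was higher with MEKi mainly at the early harvest. Its probe set, 1420764_at, gave 9.47, 9.81 and 9.24 with MEKi at 24 h, against 7.77, 8.07 and 8.04 with DMSO. At 72 h it gave 7.93, 8.32 and 7.98 with MEKi, against 7.42, 7.62 and 7.80 with DMSO. The groups were apart by 1.17 at 24 h and by 0.13 at 72 h. The log2 difference was 1.55 ± 0.14 at 24 h (2.92-fold, the fifth highest of all genes) and 0.46 ± 0.13 at 72 h (1.38-fold), and the effect at 72 h minus that at 24 h was -1.08 ± 0.21. The 72 h value did not pass the threshold of the fit. It did pass with the replicate block, among brighter probe sets, with a trended and robust prior and without replicate 3 of DMSO. Most of the time course of Scrg1 was in the treated cells, where the log2 difference of 72 h minus 24 h was -1.43 ± 0.15 (2.69-fold lower). In DMSO the groups of both times overlapped, with a difference of -0.35 ± 0.12, which did not pass the threshold. It passed with the replicate block, with arrays centred on their median, among brighter probe sets and with a trended and robust prior. It also passed without replicate 1 at 24 h or replicate 3 at 72 h.

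Of 15 measured cartilage differentiation genes, 1 rose and 1 fell with MEKi at 24 h. Sox9, the transcription factor that starts the cartilage program, rose by 0.72 ± 0.14 (adjusted p = 0.0192) and Col9a1, a cartilage collagen, fell by 0.70 ± 0.15 (adjusted p = 0.0251). Both calls were lost without replicate 1 or 3 of DMSO or replicate 1 or 2 of MEKi, and that of Sox9 also without replicate 2 of DMSO. At 72 h 1 rose and 2 fell, and over time in DMSO none rose and 2 fell. With MEKi at 72 h Sox5 fell by 0.60 ± 0.11 (adjusted p = 0.00943) and Col9a1 by 0.51 ± 0.11 (adjusted p = 0.0222). Sox9 rose by 0.40 ± 0.10 (adjusted p = 0.034), a call lost without any single array but replicate 2 of DMSO. That of Col9a1 was lost without replicate 1 or 2 of DMSO or replicate 1 of MEKi. Over time in DMSO Col9a1 fell by 1.06 ± 0.12 (adjusted p = 0.000507) and Hapln1 by 0.32 ± 0.08 (adjusted p = 0.0176). The Hapln1 call was lost without replicate 1 or 2 at 24 h. Over all genes 5.01% were called higher and 5.86% lower at 24 h, 4.03% and 5.14% at 72 h, and 14.2% and 16.9% over time in DMSO. Of 17 measured neural and glial genes, 2 rose and 1 fell with MEKi at 24 h. S100b, a calcium-binding protein of glia and melanocytes, rose by 1.09 ± 0.12 (adjusted p = 0.0035), Mbp, a myelin protein, by 0.61 ± 0.09 (adjusted p = 0.00932), and Nes, an intermediate filament of neural progenitors, fell by 0.41 ± 0.07 (adjusted p = 0.0127). The Nes call was lost without replicate 1 or 3 of DMSO or replicate 1 or 2 of MEKi. At 72 h 1 rose and 1 fell, and over time in DMSO 4 rose and 1 fell, beside the same shares over all genes as for the cartilage list. The histone deacetylase complex gene Sap30, next to Scrg1, had a difference of 0.27 ± 0.09 at 24 h, which did not pass, and fell by 0.55 ± 0.13 with MEKi at 72 h (adjusted p = 0.0354), a call that held without replicate 2 of DMSO and was lost without any other single array.

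Tmem179 was lower with MEKi at 24 h and higher at 72 h. Its probe set, 1436754_at, gave 6.82, 6.67 and 6.85 with MEKi at 24 h, against 8.31, 8.19 and 8.08 with DMSO. At 72 h it gave 8.05, 8.33 and 7.81 with MEKi, against 6.94, 6.80 and 6.23 with DMSO. The groups did not overlap at either time: every MEKi array lay below every DMSO array at 24 h, by 1.23 or more, and above them at 72 h, by 0.87 or more. The log2 difference was -1.41 ± 0.08 at 24 h (2.66-fold lower, the ninth lowest of all genes) and 1.41 ± 0.18 at 72 h (2.65-fold higher). The effect at 72 h minus that at 24 h was 2.82 ± 0.23, the highest of all genes. The log2 difference of 72 h minus 24 h was 1.28 ± 0.12 with MEKi (2.43-fold higher) and -1.54 ± 0.17 in DMSO (2.90-fold lower). Tmem179 averaged 6.78 ± 0.10 with MEKi at 24 h and 6.66 ± 0.38 in DMSO at 72 h (SD), and the ranges of these groups overlapped. It averaged 8.06 ± 0.26 with MEKi at 72 h and 8.19 ± 0.12 in DMSO at 24 h (SD), again with overlap.

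Tmem179b, the paralog of Tmem179, had differences of 0.13 ± 0.08 at 24 h and 0.11 ± 0.10 at 72 h under MEKi, which did not pass the test, and rose by 0.42 ± 0.09 over time in DMSO (adjusted p = 0.00998). The actin regulator Inf2, a neighbour of Tmem179, fell by 0.25 ± 0.06 with MEKi at 24 h (adjusted p = 0.0404). That call was lost with all 12 arrays in 1 fit (adjusted p = 0.324), with the replicate block (adjusted p = 0.0662) and with quantile normalization again (adjusted p = 0.0545). It was also lost without any single array but replicate 3 of MEKi. Inf2 had a difference of 0.47 ± 0.16 at 72 h that did not pass, and fell by 1.30 ± 0.15 over time in DMSO (adjusted p = 0.00054). The neighbour on the other side, A530016L24Rik, had differences of -0.05 ± 0.07 at 24 h and -0.32 ± 0.08 at 72 h (adjusted p = 0.0453). The 72 h call was lost with the replicate block (adjusted p = 0.0522), with the trended and robust prior (adjusted p = 0.0558) and without any single array. Over time in DMSO A530016L24Rik rose by 0.34 ± 0.08 (adjusted p = 0.0114), a call lost without replicate 1 at 24 h (adjusted p = 0.052).

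**Figure D1:**
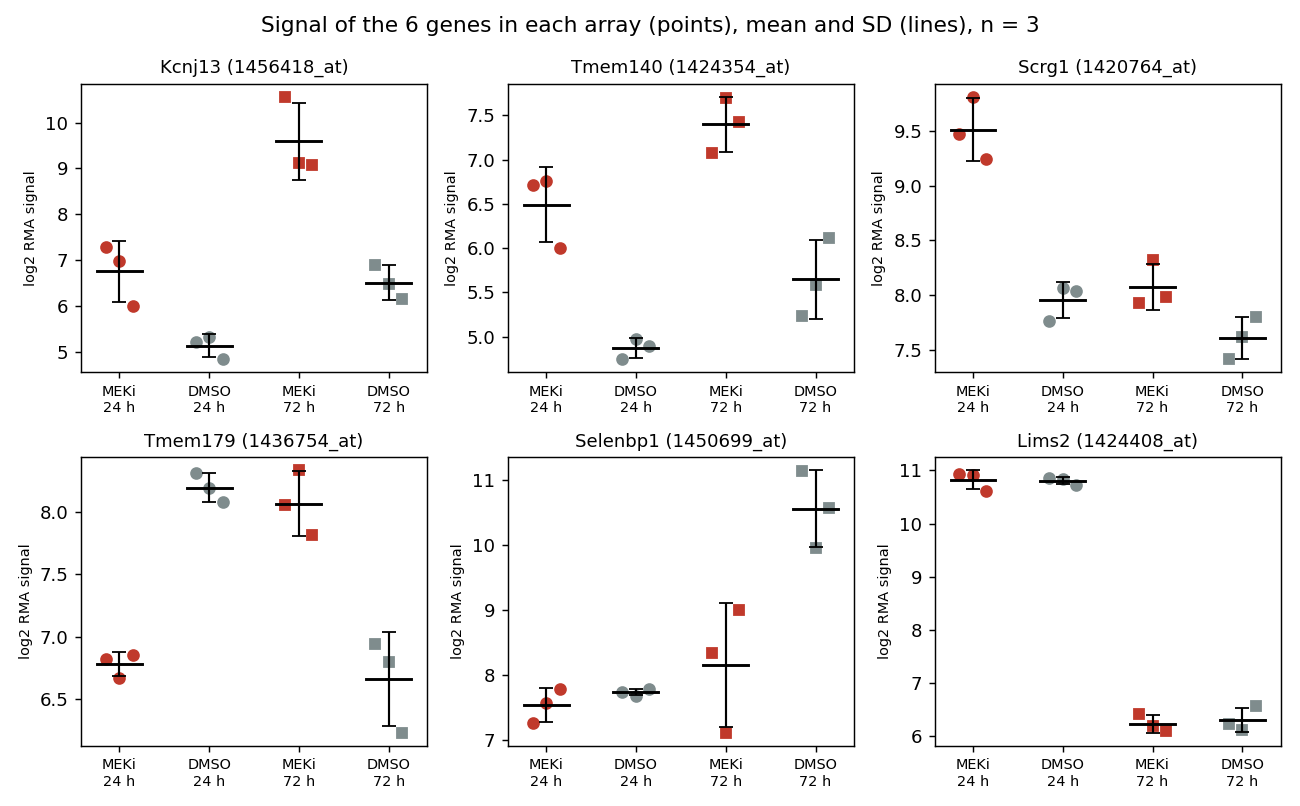
Log2 RMA signal of the brightest probe set of each of the 6 genes in each array, with MEKi in red and DMSO in grey, circles for 24 h and squares for 72 h, and black lines for the mean and SD (n = 3). Each panel has its own signal axis. Kcnj13 and Tmem140 were higher with MEKi at both times, Tmem179 changed sides between the times, Selenbp1 stood out in DMSO at 72 h, and Lims2 separated by time alone.

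Selenbp1 separated late. Its brighter probe set, 1450699_at, gave 7.27, 7.58 and 7.79 with MEKi at 24 h, against 7.75, 7.69 and 7.79 with DMSO, and these groups overlapped. At 72 h it gave 8.35, 7.12 and 9.01 with MEKi, against 11.14, 9.96 and 10.58 with DMSO, so every MEKi array lay below every DMSO array, by 0.95 or more. The log2 difference was -0.20 ± 0.12 at 24 h and -2.40 ± 0.42 at 72 h (5.28-fold lower, the second lowest of all genes). In DMSO the signal at 72 h exceeded that at 24 h by 2.82 ± 0.24 (7.05-fold, the fifth highest). With MEKi this time difference was 0.61 ± 0.38 and the arrays of both times overlapped. The effect at 72 h minus that at 24 h was -2.20 ± 0.52, the second lowest of all genes. The spread between the MEKi arrays at 72 h was wide, with an SD of 0.96, and replicate 2 was the lowest of all 12 arrays. Without it, the time difference with MEKi was 1.13 and passed the threshold, and without replicate 3 at 72 h it was 0.19 and did not.

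The second Selenbp1 probe set, 1417580_s_at, gave the same picture. It gave 6.95, 7.19 and 7.34 with MEKi at 24 h, against 7.46, 7.24 and 7.39 with DMSO, and 8.08, 6.98 and 8.82 with MEKi at 72 h, against 10.77, 9.58 and 10.07 with DMSO. Its log2 differences were -0.20 ± 0.11 at 24 h, -2.18 ± 0.41 at 72 h (4.53-fold lower) and 2.78 ± 0.25 over time in DMSO (6.85-fold). Its effect at 72 h minus that at 24 h was -1.98 ± 0.50, which did not pass the threshold. It passed with the replicate block, among brighter probe sets, and without replicate 2 of DMSO or replicate 3 of MEKi at 72 h. The differences of both probe sets lay within 0.23 of each other in each comparison, and within an array the second was dimmer by 0.14 to 0.51. The annotation pairs it with Selenbp1, but the transcript accession it gives belongs in RefSeq to Selenbp2, a near-identical gene. No probe set is paired with Selenbp2 alone, so the 2 genes cannot be told apart by this probe set. Both 72 h differences no longer passed the threshold with a trended and robust prior, which alters only the error.

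**Figure D2:**
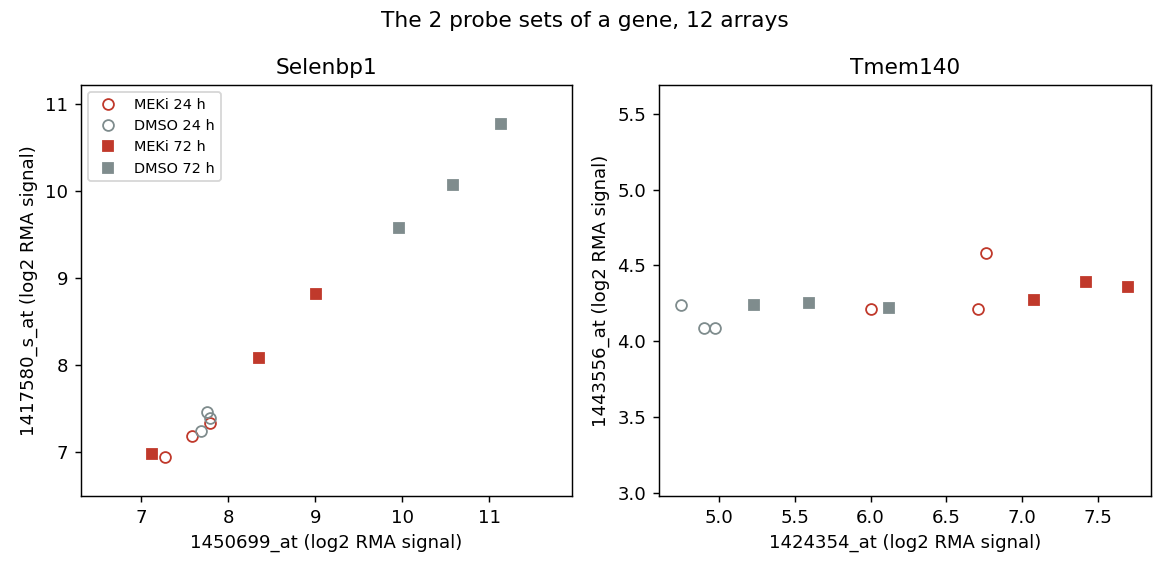
Log2 RMA signal of the 2 probe sets of Selenbp1 (left) and of Tmem140 (right) in the 12 arrays, with the brighter probe set on the x axis, MEKi in red, DMSO in grey, open circles for 24 h and filled squares for 72 h. The Selenbp1 probe sets move together over the whole range, while the second Tmem140 probe set stays between 4.09 and 4.58.

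Of 9 measured genes of sulfide and methanethiol metabolism, none rose and 1 fell with MEKi at 24 h, 1 rose and 1 fell at 72 h, and 2 rose and 1 fell over time in DMSO. Over all genes, 5.01% higher and 5.86% lower calls were made at 24 h, 4.03% and 5.14% at 72 h, and 14.2% and 16.9% over time in DMSO. Cth, the cystathionine lyase that makes cysteine and hydrogen sulfide, fell by 0.64 ± 0.09 with MEKi at 24 h (adjusted p = 0.00727) and by 1.39 ± 0.29 at 72 h (adjusted p = 0.0198), and rose by 1.55 ± 0.24 over time in DMSO (adjusted p = 0.00201). Its 24 h call was lost with all 12 arrays in 1 fit (adjusted p = 0.162). Its 72 h call was lost with the trended prior, and without replicate 1 of DMSO or replicate 1 or 2 of MEKi. Suox, the sulfite oxidase, rose by 0.52 ± 0.08 with MEKi at 72 h (adjusted p = 0.00569). Selenbp1 binds selenium but holds no selenocysteine. Of 21 genes of selenoproteins and their synthesis, 4 rose and 1 fell with MEKi at 24 h, 2 rose and 2 fell at 72 h, and 3 rose and 4 fell over time in DMSO, to be read beside those shares over all genes. Of the 4 that rose at 24 h, Selenok and Selenom were lost without any single array but replicate 3 of MEKi. Selenos was lost with the replicate block and without any single array. Txnrd1, which fell at 24 h, was lost without replicate 1 of MEKi. Selenop, the secreted selenium carrier, rose by 1.11 ± 0.16 with MEKi at 24 h (adjusted p = 0.00762), and over time in DMSO it rose by 1.05 ± 0.11 (adjusted p = 0.000362). Secisbp2 fell most of the list over time in DMSO, by 0.81 ± 0.11 (adjusted p = 0.00088). With MEKi at 72 h Selenoh fell most, by 0.46 ± 0.09 (adjusted p = 0.0149), a call lost without replicate 1 of DMSO or replicate 1 or 2 of MEKi. Psmb4, a proteasome subunit and neighbour of Selenbp1, rose by 0.36 ± 0.08 with MEKi at 72 h (adjusted p = 0.0222), a call that held without replicate 2 of DMSO and was lost without any other single array. Rfx5, a regulator of MHC class II genes and the neighbour on the other side, rose by 1.17 ± 0.08 over time in DMSO (adjusted p = 7.32e-05), with differences of 0.23 ± 0.07 and -0.14 ± 0.10 under MEKi at 24 h and 72 h that did not pass.

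Lims2 had the largest decrease over time of all genes, with and without drug. Its probe set, 1424408_at, gave 6.42, 6.18 and 6.09 with MEKi at 72 h, against 10.93, 10.92 and 10.62 with MEKi at 24 h. In DMSO it gave 6.23, 6.11 and 6.56 at 72 h, against 10.86, 10.83 and 10.73 at 24 h. Within a treatment the groups did not overlap, and the nearest arrays of both times were at least 4.17 apart. The log2 difference was -4.59 ± 0.11 with MEKi (24.1-fold lower) and -4.51 ± 0.11 in DMSO (22.7-fold lower). MEKi and DMSO arrays overlapped at both times, with differences of 0.02 ± 0.09 at 24 h and -0.07 ± 0.13 at 72 h.

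Lims1, which encodes PINCH1 and is the paralog of Lims2, was read from the brightest of its 5 probe sets alone. Its group means lay between 10.49 and 10.76, and it did not pass the test in any of these comparisons. The difference was 0.24 ± 0.06 with MEKi at 24 h (adjusted p = 0.0513) and -0.03 ± 0.08 over time in DMSO. Of 22 measured genes of the ILK, PINCH and parvin complex and of focal adhesions, 2 rose and 8 fell over time in DMSO, beside 14.2% called higher and 16.9% called lower over all genes, and their median was -0.09, beside 0.04 over all genes. Most of the 22 had signals above the median probe set mean. Of the 22514 probe sets above it, fitted alone, 4461 were called higher and 6813 lower in this comparison, a larger share than over all genes. Vcl, the actin linker vinculin, fell by 0.98 ± 0.11 (adjusted p = 0.000442). Parvb, the ILK partner beta-parvin, fell by 0.85 ± 0.11 (adjusted p = 0.00079). Tns3, a tensin, fell by 0.72 ± 0.07 (adjusted p = 0.00025) and Zyx, zyxin, by 0.69 ± 0.10 (adjusted p = 0.00106). Itgb5, an integrin beta chain, rose by 0.81 ± 0.11 (adjusted p = 0.00093). Ilk itself had a difference of -0.08, which did not pass. With MEKi at 24 h 2 of the 22 rose, 1 of them Itgb3, the beta chain of the vitronectin receptor, by 0.80 ± 0.11 (adjusted p = 0.00578), and 3 fell, beside 5.01% higher and 5.86% lower over all genes. At 72 h none rose and 2 fell, Itgb5 by 0.65 ± 0.10 (adjusted p = 0.00575) and Tns3 by 0.46 ± 0.08 (adjusted p = 0.00974), the second of which was lost without replicate 2 of MEKi, beside 4.03% higher and 5.14% lower over all genes. Gpr17, an orphan receptor whose gene overlaps Lims2, had a difference of 0.12 ± 0.07 over time in DMSO and did not pass the test in any of these comparisons, and its mean signal was 4.10. Sft2d3, a neighbour of Lims2, fell by 0.39 ± 0.09 with MEKi at 72 h (adjusted p = 0.0369) and rose by 0.30 ± 0.07 over time in DMSO (adjusted p = 0.0161). The 72 h call was lost without replicate 1 or 3 of DMSO or replicate 2 or 3 of MEKi, and the call over time without replicate 1 or 2 at 24 h or replicate 1 at 72 h. Myo7b, the neighbour on the other side, did not pass the test in these comparisons, and neither did Efhd1 and Snorc beside Kcnj13 or Hand2 beside Scrg1.

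**Figure D3:**
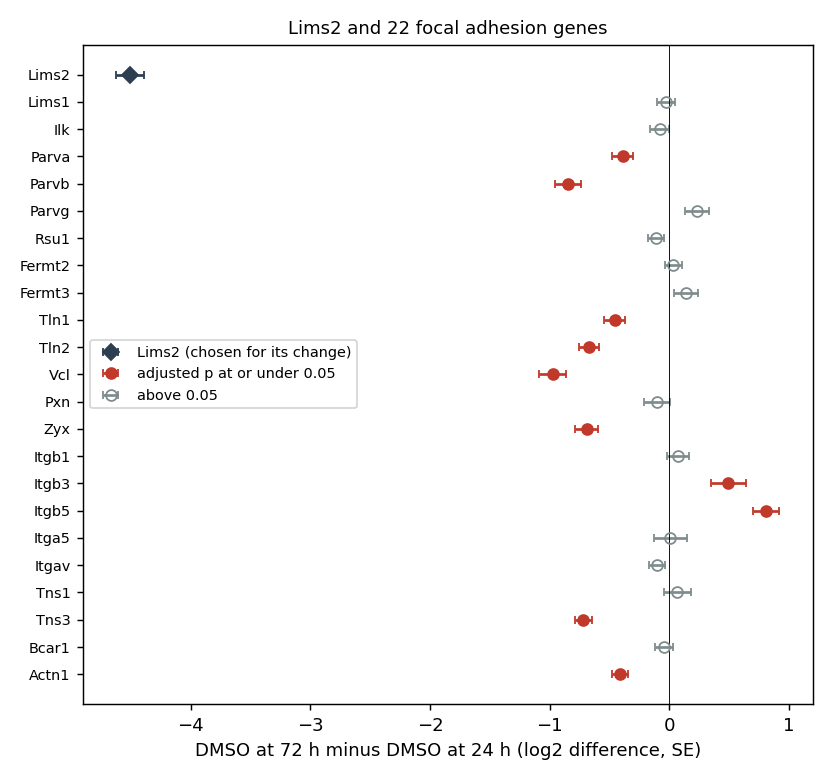
Log2 difference of DMSO at 72 h minus DMSO at 24 h, with SE, for Lims2 (diamond) and for the 22 measured genes of the ILK, PINCH and parvin complex and of focal adhesions, filled red where the adjusted p was at or under 0.05. Lims2 lies at -4.51, and the listed genes lie between -0.98 and 0.81.

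Set side by side, the 8 probe sets fell into different time patterns. With MEKi at 24 h 4 of the 8 passed the threshold of the fit, 3 higher and 1 lower, where 8.44% of all probe sets passed, and at 72 h 5 of 8, 3 higher and 2 lower, where 7.24% passed. Over time 6 of 8 passed in DMSO, where 25.6% of all passed, and 5 of 8 with MEKi, where 25.2% passed. In the difference of the MEKi effects 3 of 8 passed, or 5 with the replicate block, where 3.02% of all passed. The groups did not overlap for 4 and 7 of the 8 under MEKi at 24 h and 72 h, beside 28.1% and 24.6% of all probe sets, and for 6 over time in DMSO and 5 with MEKi, beside 41.1% and 40.9%. The genes were selected on these differences, so nothing is read from these counts. The comparisons share arrays, since DMSO at 24 h and at 72 h each enter a MEKi effect and the time difference in DMSO.

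**Figure D4:**
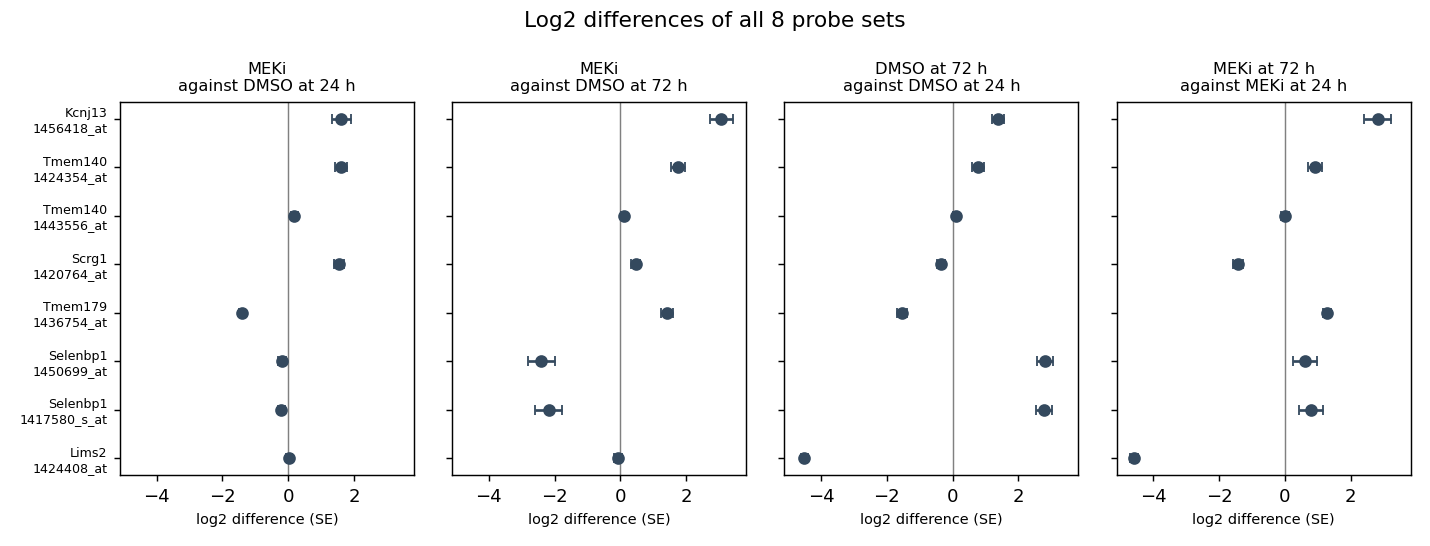
Log2 differences with SE of all 8 probe sets in the 4 comparisons (n = 3 arrays per group), MEKi minus DMSO at 24 h and at 72 h, and 72 h minus 24 h in DMSO and with MEKi. The 2 Selenbp1 probe sets lie close together in each panel, the 2 Tmem140 probe sets do not, and Lims2 departs from 0 over time only.

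**Figure D5:**
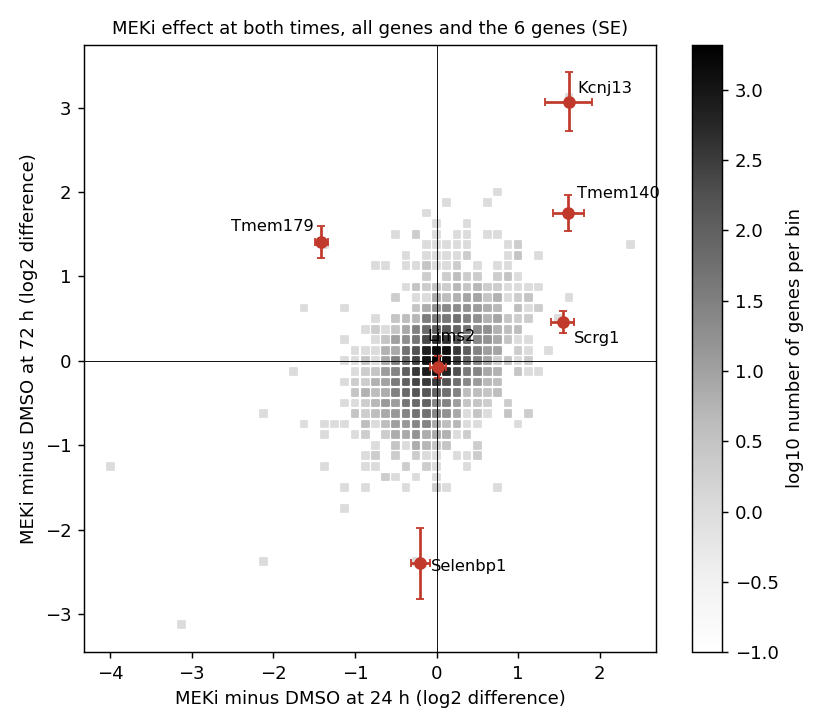
MEKi minus DMSO log2 difference at 24 h (x axis) and at 72 h (y axis) for all 18193 genes in square bins, shaded by the log10 number of genes, and for the 6 genes with SE in red. Kcnj13 and Tmem140 lie at the upper right, Scrg1 to the right, Tmem179 in the upper left with -1.41 and 1.41, Selenbp1 below with -0.20 and -2.40, and Lims2 near 0.

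Genes with like patterns were sought by Pearson r over the 12 arrays, among 890 bright genes whose group means spanned at least 1, as a description. The arrays share the time and drug groups, so any gene that follows these groups scores high. Nearest to Kcnj13 was Gaa, the lysosomal alpha-glucosidase (r = 0.981), with group means of 10.49 and 10.07 for MEKi and DMSO at 24 h and 11.18 and 10.47 at 72 h, followed by Hint3 (0.975) and Adamtsl4 (0.974). Nearest to Tmem140 were Spsb2 (0.975), the adhesion molecule L1cam (0.966) and Vwa5a (0.963). L1cam had means of 8.59 with MEKi and 7.58 with DMSO at 24 h, and 9.26 and 8.23 at 72 h. Nearest to Scrg1 was Ccn4, a secreted matricellular protein (0.965), with 10.44 with MEKi and 8.87 with DMSO at 24 h, and 8.68 and 7.95 at 72 h, followed by Depdc7 (0.941) and Nrip3 (0.938).

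The pattern of Tmem179 had the least close relatives, with the chemokine Cxcl10 at 0.901, Cela1 at 0.896 and Tinagl1 at 0.846. Cxcl10 had means of 8.24 with MEKi and 9.36 with DMSO at 24 h, and 9.36 and 8.71 at 72 h, so it was on the same sides as Tmem179 at both times. Nearest to Selenbp1 were Adssl1, an enzyme of purine synthesis (0.978), Higd1a, a mitochondrial protein known to be induced by low oxygen (0.974), and Aire (0.973). Higd1a had means of 11.29 with MEKi and 11.15 with DMSO at 24 h, and 11.52 and 12.37 at 72 h. Nearest to Lims2 were Smad6, an inhibitor of BMP signalling (0.995), the myelin lipid carrier Pmp2 (0.992) and Fntb, a subunit of protein farnesyltransferase (0.989). Smad6 had means of 5.57 with MEKi at 72 h and 8.89 with MEKi at 24 h, and of 5.90 and 8.80 in DMSO at the same times.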

How the data were processed

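RNA of 12 samples was measured on Affymetrix GeneChip mouse genome arrays, 1 array per sample. Per the labels, 200 ng of total RNA was labelled with the 3′ IVT Plus kit and the authors normalized the arrays by RMA, in Chipster per the study methods, with versions not given in the sources used here. The deposited values are log2 RMA signals rounded to 2 decimals and were used as they stand. RMA makes the array distributions nearly alike, so the size of a shift shared by all genes cannot be read from them. The arrays still differed by harvest time in their medians, given above, and in their interquartile range. That range lay between 4.06 and 4.19 at 72 h and between 4.24 and 4.33 at 24 h.

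Of the probe sets, 64 controls were left out. A gene's value was that of the brightest probe set paired with it alone. Each pair of groups was fitted on its own 6 arrays with limma 3.58.1 in R 4.3.3 (lmFit and eBayes, two-sided, no covariates, Benjamini-Hochberg over 45037 probe sets, threshold 0.05), and the difference of the MEKi effects on all 12. Called means an adjusted p at or under 0.05. The fit was tested on simulated data. The genes and lists were chosen with earlier results of these data known. Named were the 6 genes, their paralogs, their measured neighbours and overlapping genes in RefSeq, some of the called genes of the lists, and for each gene the 3 with the highest Pearson r. Other tools were Python 3.11.15 with pandas 2.3.3 and numpy 2.4.6.

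The replicate numbers were checked as pairs by correlating deviations from group means, over probe sets above the median. For the MEKi and DMSO arrays that share a number, r was 0.207, 0.283 and 0.282 (24 h) or 0.307, 0.271 and 0.214 (72 h). For pairs of different numbers r was no higher than 0.00234 at 24 h and -0.0695 at 72 h. Arrays that share a number thus deviated more alike within a time, which the main fits leave out. Over all probe sets r for shared numbers was 0.0729 to 0.189, with 1 pair at 24 h under 0.1. Across times, over probe sets above the median, r for shared numbers was 0.0604, 0.017 and 0.01 in DMSO. With MEKi it was 0.142, -0.0146 and 0.202, where pairs of different numbers reached 0.188. Alternatives were the replicate number as a block, 1 fit of all 12 arrays, arrays centred on their median, quantile normalization again, brighter probe sets, a trended and robust prior, a mean over the probe sets of a gene, and fits that left out 1 array each.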

Additional observations from a re-analysis of the deposited data

Results flagged for a closer look

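In 3 of the genes the MEKi effect at 72 h minus that at 24 h passed the threshold of the limma fit. The genes were chosen for large effects in these arrays, so this singles out values to look at and is no test. For Scrg1 (1420764_at) the effect at 72 h minus that at 24 h was -1.08 on the log2 scale, with effects of 0.46 at 72 h and 1.55 at 24 h. For Tmem179 (1436754_at) it was 2.82, with effects of 1.41 at 72 h and -1.41 at 24 h. For the brighter Selenbp1 probe set (1450699_at) it was -2.20, with effects of -2.40 at 72 h and -0.20 at 24 h. Its call held without replicate 2 of DMSO at 72 h or replicate 2 or 3 of MEKi at 72 h, and was lost without any other single array and with the trended and robust prior.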

How the results depend on the processing

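Of 525 log2 differences of the 8 probe sets under the alternatives, 518 moved by less than the SD between replicates and 7 by more. Those 7 were all in Tmem140, with the mean of its probe sets or in its dim probe set. None that passed the threshold changed sign. The replicate block, the joint fit of all arrays, the brighter probe sets and the trended and robust prior leave a difference itself unchanged. Leaving out an array shifts the mean of its group by only part of that group's SD. Many of the 518 thus could not have moved by more, and their count is no measure of robustness. Differences that did not pass changed sign in some fits: Lims2 reached -0.04 at 24 h (main 0.02) and 0.06 at 72 h (main -0.07), and the brighter Tmem140 probe set -0.11 in the difference of the MEKi effects (main 0.14). The count of the 8 probe sets called in the difference of the MEKi effects was 5 with the replicate block and 3 in the main fit. Over leave-one-out fits it was 2 to 4 there, 3 to 4 at 24 h, 5 to 6 at 72 h, 6 to 7 over time in DMSO and 5 to 7 with MEKi. The call of the brighter Selenbp1 probe set in that difference was lost with the trended and robust prior and without most single arrays.

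Over all probe sets, the 3801 called at 24 h became 6403 among brighter probe sets, 6623 with the trended and robust prior and 1133 to 5091 with 1 array left out. The 3260 at 72 h became 5373 with all 12 arrays in 1 fit and 1383 to 2716 with 1 array left out. The 1358 in the difference became 2301 among brighter probe sets, 2106 with the trended and robust prior and 668 to 1798 with 1 array left out. With arrays centred on their median, the split of higher and lower calls over time was 3363 and 7952 in DMSO (main 5080 and 6460) and 3128 and 8174 with MEKi (main 5095 and 6250). The same alternatives were added for the 109 genes of the related lists after seeing the data. The 18 called at 24 h became 29 among brighter probe sets, 29 with the trended and robust prior and 7 to 23 with 1 array left out. The 16 at 72 h became 8 to 15 with 1 array left out. The replicate block changed no other count by over 1.5 times. It changed single calls: Kcnj13 and the second Selenbp1 probe set passed in the difference, and Scrg1 at 72 h and over time in DMSO. Parvb, Selenos and Inf2 at 24 h, A530016L24Rik at 72 h and Sap30 and Selenow over time in DMSO no longer passed. The cause of these changes was not tested, except that fewer arrays or probe sets enter where they were left out. The number of arrays limits the precision.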
